A study of Mus musculus with 60 samples.

Results

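The genes examined were Foxj1, Dynlrb2, Ccdc153, Rsph1, Tmem212, Dnah11, Dnah12 and Cfap126, 8 genes of the motile cilium that occupy 9 of the 47574 entries used in the deposited tables. They were chosen by their names as ependymal cilium genes, with 1 measured value behind the choice, since Dynlrb2 had stood out in an earlier comparison of the labelled groups of these data. Dnah12 had 2 entries with 1 gene identifier, at chr14:26693274-26816334 and chr14:26831301-26891703 of GRCm38, called entry 1 and entry 2 below.

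The 60 libraries were labelled as cortex or striatum of c57BL-6N mice aged 3 months, in 10 groups of 6 with 3 males and 3 females in each. In each tissue label, 3 groups belonged to the Δ12 line (+/+, Δ12/+ and Δ12/Δ12), in which part of exon 12 of Htt is deleted, and the other 2 to the KO line (+/+ and KO/+), bred from a founder in which the edit failed and a different deletion took away the splice donor of that exon. Both alleles were made by editing embryonic stem cells and were not limited to a cell type, and each line had its own +/+ group. The RNA was of bulk tissue, so that fewer cells of a type and less RNA per cell cannot be told apart.

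Ependymal cells line the brain ventricles and move cerebrospinal fluid with tufts of motile cilia. A motile cilium is built on an axoneme of microtubule doublets, on which axonemal dyneins pull and which radial spokes and nexin links control. FOXJ1, a forkhead factor, switches on most genes of this apparatus together with RFX factors. The choroid plexus, an epithelium that hangs in the same ventricles and secretes the fluid, carries Ttr, Folr1 and Kl.

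The labels went against expression in many libraries. The higher of Xist and Ddx3y, transcripts of the inactive X and of the Y chromosome, was that of the other sex in 30 of 60 libraries. Htt, the targeted gene, had a median of 16.8 rescaled FPKM in the libraries labelled striatum KO/+ (12.7 to 19.7). In their +/+ group it was 17.5 (16.8 to 20.7), and the ranges overlapped. The paper describes a truncated transcript from the KO allele, so Htt FPKM need not fall in KO/+. That overlap does not decide whether the labels are right. Slc17a7, a marker of cortical excitatory neurons, divided the libraries into 30 with a deposited FPKM of 121 to 234, called cortex-like, and 30 with 4.81 to 64.8, called striatum-like. Of the libraries labelled cortex, 15 were cortex-like and 15 striatum-like, and the same held for those labelled striatum. The 24 libraries labelled KO line were all striatum-like, those labelled Δ12 line +/+ or Δ12/+ were all cortex-like, and each group labelled Δ12/Δ12 held 3 of either kind. No library was moved to another group. The sets are used below only to describe levels, with no test, and what else differed between them cannot be told apart from the tissue. Ddx3y, for example, ran from 17.0 to 30.0 rescaled FPKM in the 15 cortex-like libraries that had it and from 6.30 to 8.85 in the 15 striatum-like ones.

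The estimated depth, rounded, was 12700000 to 19400000 fragments in the cortex-like libraries (median 14400000) and 16400000 to 27500000 in the striatum-like ones (median 18200000). A pair of cortex-like libraries, labelled cortex Δ12 line +/+ male 1 and female 1, stood apart with 16403 and 14912 entries above 0, against at least 18667 in each of the other 28. Dynlrb2, Ccdc153, Rsph1, Tmem212 and Cfap126 were all listed at 0 in both. Both belong to the group labelled cortex Δ12 line +/+.

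Promoters were read from the RefSeq tables of GRCm38.p6, in which 6 of the 8 genes had at least 1 entry (300 bases around the start). The 3 promoters below are shown because they hold the short motif of RFX factors, GTTGCC or GTTACC, whose factors act with FOXJ1. Capitals mark these letters, and in Tmem212 also the forkhead core TGTTTA, on either strand.
Dynlrb2 (chr8:116504765-116505064, plus strand): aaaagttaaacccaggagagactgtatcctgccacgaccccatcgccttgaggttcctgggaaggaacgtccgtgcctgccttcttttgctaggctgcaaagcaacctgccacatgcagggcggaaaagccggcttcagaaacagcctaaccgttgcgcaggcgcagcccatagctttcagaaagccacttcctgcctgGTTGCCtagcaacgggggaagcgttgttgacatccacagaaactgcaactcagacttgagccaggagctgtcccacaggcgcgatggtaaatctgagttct
Ccdc153 (chr9:44240427-44240726, plus strand): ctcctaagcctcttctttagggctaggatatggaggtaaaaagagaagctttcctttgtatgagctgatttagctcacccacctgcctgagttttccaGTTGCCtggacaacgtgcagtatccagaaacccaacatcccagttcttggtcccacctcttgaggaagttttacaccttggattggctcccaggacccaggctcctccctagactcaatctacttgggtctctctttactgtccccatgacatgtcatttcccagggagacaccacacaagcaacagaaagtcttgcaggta
Tmem212 (chr3:27896319-27896618, minus strand): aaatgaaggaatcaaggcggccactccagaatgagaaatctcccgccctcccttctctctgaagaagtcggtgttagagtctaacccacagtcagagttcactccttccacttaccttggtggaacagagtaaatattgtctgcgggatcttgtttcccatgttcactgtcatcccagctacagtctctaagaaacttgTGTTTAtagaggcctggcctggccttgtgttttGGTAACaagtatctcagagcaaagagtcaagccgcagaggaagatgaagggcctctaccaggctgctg

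GTTGCC lay on the gene's strand in Dynlrb2, its first base 51 bases before the start, and in Ccdc153, 152 bases before it. Of all 32851 promoters of that length, 12.5% held GTTGCC on either strand. In Tmem212, GTTACC was found on the reverse strand (GGTAAC), and 7.21% of all promoters held it. TGTTTA was found in Tmem212, Dnah11 and Dnah12, and in 13.4% of all promoters. The motifs do not overlap in these windows. These matches are descriptions of letters, not of binding.

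Foxj1 had the highest median FPKM of the 8 genes in the striatum-like libraries and the largest difference in median FPKM between the sets. Its rescaled FPKM (the deposited FPKM divided by a scaling factor of each library) ran from 0.161 to 3.62 with a median of 0.533 in the cortex-like libraries. In the striatum-like libraries it ran from 2.18 to 4.93 with a median of 3.61, a ratio of medians of 6.78. The sets overlapped through 1 library, labelled cortex Δ12 line +/+ male 1, at 3.62 with 128 fragments. Without the libraries that stood apart, the highest cortex-like value was 1.38, and the sets no longer overlapped. Of the 9 entries, Foxj1 was the 1 whose ranges then did not overlap, whereas 40.1% of the 16076 entries with a mean of at least 0.5 did not (36.2% with all libraries, and none of the 9). Both Dnah12 entries were below that mean and the other 7 above it. The fragments behind a value came from the interval bounds in the tables and were few for most of these genes, with counting error only. A cortex-like library had 7 to 128 Foxj1 fragments (median 22.8) and a striatum-like one 98 to 245 (median 163).

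The axonemal genes differed in direction. Rsph1, a radial spoke head protein, had a median of 0.214 rescaled FPKM in cortex-like libraries (0 to 0.651, at 0 in 5) and 0.983 in striatum-like ones (0.195 to 1.75). In 22 of the 30 striatum-like libraries it was above the highest cortex-like value. Dnah12, an inner-arm dynein heavy chain, was the scarcest. Its entry 1 had medians of 0.0155 and 0.186 and its entry 2 of 0.0056 and 0.101 in the cortex-like and striatum-like libraries. Entry 2 was listed at 0 in 15 cortex-like libraries and in none of the striatum-like ones, where 3 to 18 fragments supported it.

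Dnah11, an outer-arm dynein heavy chain, went the other way. It had a median of 0.658 in cortex-like libraries (0.0725 to 1.74) and 0.355 in striatum-like ones (0.119 to 1.11). Its gene overlaps Cdca7l on the opposite strand, and whether this bears on its level was not tested. Ccdc153, a coiled-coil protein of the axoneme, was likewise higher in cortex-like libraries, at a median of 0.985 (0 to 1.89, or 0.488 to 1.89 without the libraries that stood apart) against 0.643 (0.0782 to 1.78). The ranges of both genes overlapped widely between the sets.

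The remaining genes were higher in the striatum-like libraries. Cfap126, a protein of basal body docking, had a median of 0.717 (0 to 1.53) against 0.156 (0 to 1.32, at 0 in 7 libraries). Tmem212, a membrane protein that marks ependymal cells, had a median of 1.14 (0.0953 to 2.07) against 0.595 (0 to 2.23). Dynlrb2, a roadblock light chain of dynein, had a median of 1.05 (0 to 2.56, at 0 in 2) against 0.359 (0 to 4.66, at 0 in 8). A library listed at 0 for Dynlrb2 allows up to 0.607 FPKM, what 3 fragments are worth, so the cortex-like median of this gene lies within what a count of 0 allows. In all, 7 of the 9 entries had the higher median in the striatum-like set, against 50.9% of the 16076 entries. The same 7 did so on deposited FPKM and without the libraries that stood apart. Both Dnah12 entries, of 1 gene, are among the 7 but lie below the mean that the 16076 entries had to reach. The count and the share are thus not of like entries, and nothing is read from them. The median log2 ratio of set medians (after adding 0.5) was 0.58 over the 9 entries, both of Dnah12 included, and 0.03 over all entries.

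**Figure D1:**
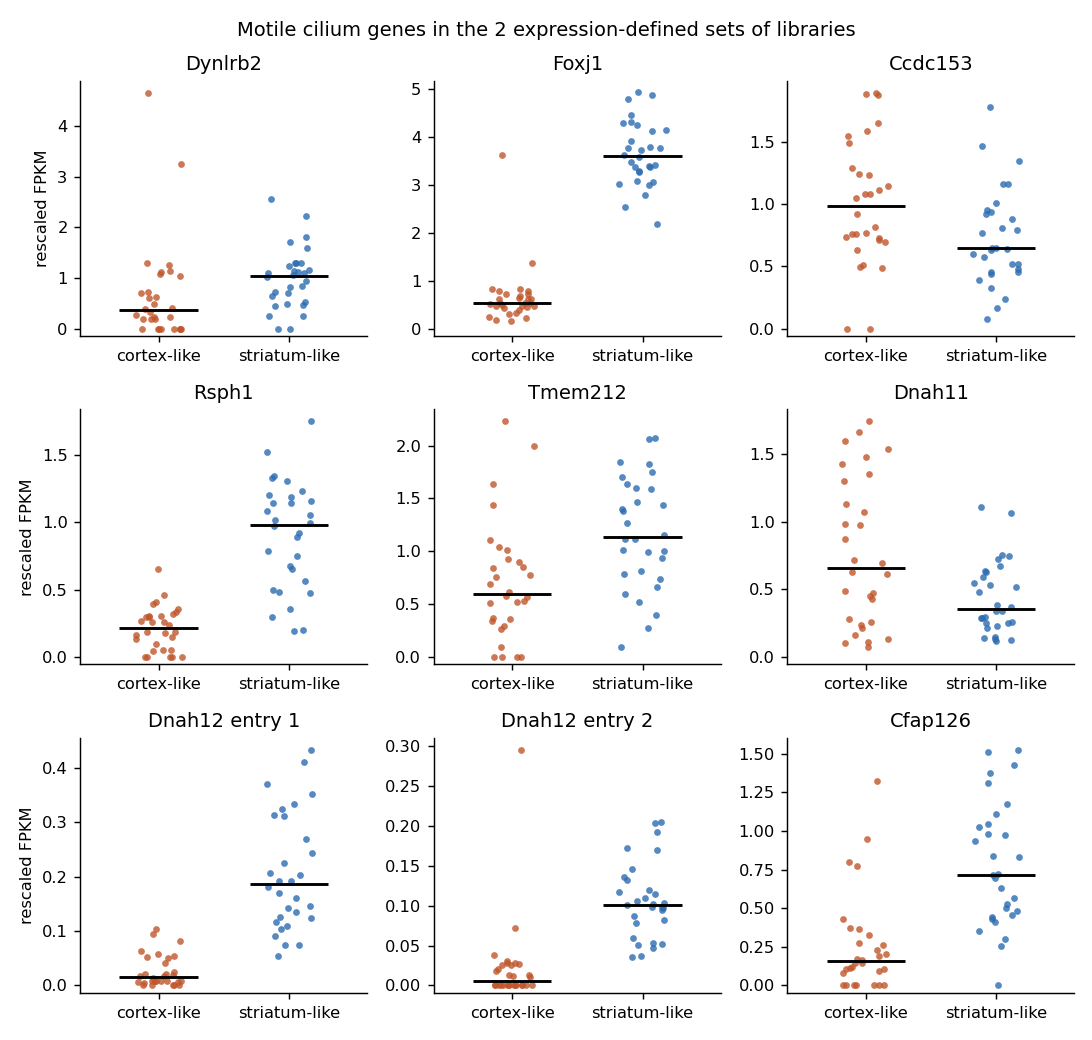
Rescaled FPKM (y axis, linear, own scale per panel) of each of the 9 entries in the 30 cortex-like and 30 striatum-like libraries; each point is a library and the bar is the median. Foxj1 sits at 2.18 or above in every striatum-like library and below 1.38 in all but 2 cortex-like libraries, one at 3.62 and one at 1.38.

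The other cilium genes were mixed as well. Of the other axonemal dynein genes, 11 of 13 had the higher median in striatum-like libraries, as had 11 of 12 genes of dynein arm assembly and docking and 11 of 14 radial spoke and central pair genes. Dnaic1, an intermediate chain of the outer arm, had medians of 1.34 in the striatum-like and 0.515 in the cortex-like set, and Dnaic2, another, of 0.896 and 0.390. Dnal1, of the same dynein list, went the other way, at 13.2 and 15.3. Drc1, of the nexin link, had medians of 3.58 and 1.94. Ccdc39, which sets the spacing along the doublet, had 4.05 and 3.59. Rsph9, a radial spoke head protein, was higher in the cortex-like set, at 8.79 against 3.20, without overlap. Spag6, of the central pair, was also higher there, at 3.01 against 0.293, again without overlap. Spag6l and Rsph3a, of the same list, were higher in the striatum-like set, at 2.55 against 1.94 and 2.55 against 1.71. These genes of 1 structure thus did not share a direction.

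Of the other axoneme and motile cilium genes, 13 of 21 had the higher median in striatum-like libraries. Tppp3, which binds microtubules and is not confined to cilia, had medians of 78.9 in the cortex-like and 24.6 in the striatum-like set, and Cfap69 had 7.26 and 2.72. Of the multiciliation regulators 6 of 8 were higher in the striatum-like set, among them Rfx2 at 0.797 against 0.0357 and Ccno at 0.850 against 0.389. Rfx3, a factor that neurons express too, was higher in the cortex-like set at 33.5 against 12.2. Primary cilium genes, which most neurons use, had the higher median in striatum-like libraries in 9 of 11 cases, with Adcy3 at 15.2 against 7.01 and Bbs4 lower at 7.48 against 14.6. Dynlrb1, the broadly expressed relative of Dynlrb2, had medians of 29.8 and 26.1 and ranges that overlapped.

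**Figure D2:**
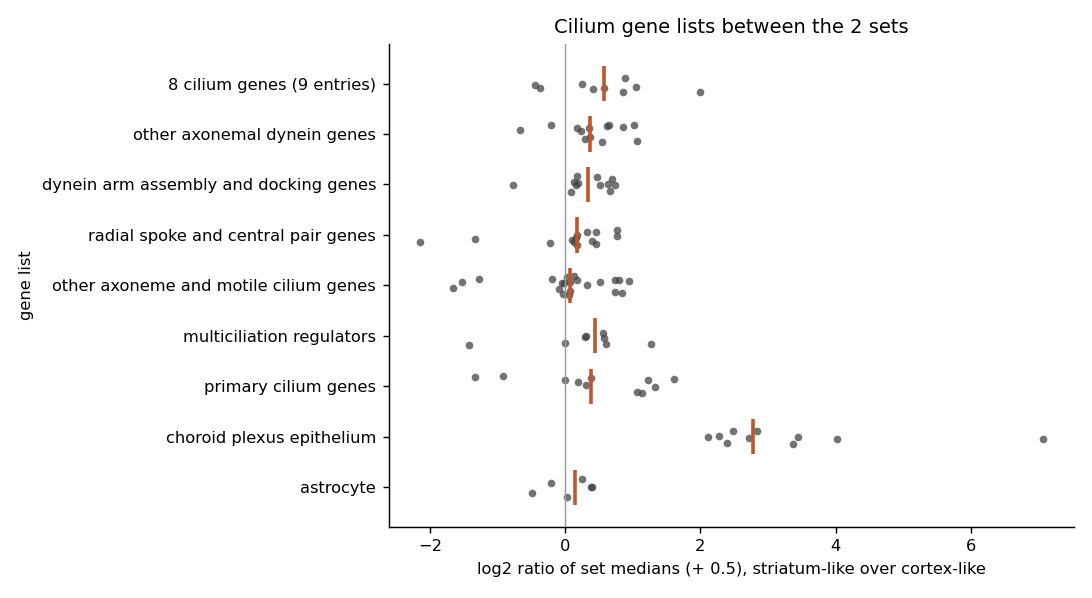
Log2 ratio of the set medians, with 0.5 added to each, for every gene of each list (x axis, striatum-like over cortex-like; points are genes, bars list medians). The 8 cilium genes have a list median of 0.58 and choroid plexus markers one of 2.78, with all 10 choroid plexus points above 0.

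Markers of other cells moved with the sets too. The 10 choroid plexus markers summed to 36.0 to 2148 rescaled FPKM in striatum-like libraries (median 996) and to 2.84 to 387 in cortex-like ones (median 9.41), with the higher median in the striatum-like set for 10 of 10. All 7 markers of subventricular neuroblasts and progenitors were higher there as well, at a sum of 11.3 to 18.3 against 3.24 to 10.2. The 6 astrocyte markers summed to 271 to 406 and 265 to 460 and overlapped. Of the neuron lists, all 5 striatal projection neuron and all 3 septal neuron markers were higher in the striatum-like set and all 4 cortical excitatory and all 4 hypothalamic ones lower, as were 2 of 3 oligodendrocyte markers higher and 3 of 5 leptomeningeal ones lower. What part these cells had in the levels of the cilium genes was not tested.

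Within the striatum-like libraries the cilium genes varied together. Over the 35 pairs of entries of different genes, Pearson's r of log2(rescaled FPKM + 0.5) had a median of 0.41 over the 30 libraries, was above 0 in 34 pairs and reached 0.5 in 13. Foxj1 had r = 0.71 with Dnah11, 0.62 with Rsph1, 0.62 with Tmem212 and 0.62 with Cfap126. Tmem212 and Ccdc153 had r = 0.65. Dynlrb2 had r of -0.03 to 0.41 with the others, and its highest r was the lowest of the 9 entries. Without the 2 libraries farthest from the median of the mean z-score, the median r was 0.31, 6 pairs reached 0.5, and Foxj1 with Dnah11 had 0.66. The points share the scaling, and many rest on few fragments. No r was computed between pairs of other entries, so what is usual over these libraries is not known. These are correlations over libraries of several labelled groups and were not tested.

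Within the cortex-like libraries the relation was weaker, and its strongest pair rested on the libraries that stood apart. The median r over the 35 pairs was 0.20, with 21 above 0 and 3 at 0.5 or more. The strongest were Foxj1 with Dnah12 entry 2 at 0.76, Tmem212 with Ccdc153 at 0.63 and Dynlrb2 with Tmem212 at 0.53. Without the libraries that stood apart the median was 0.14, no pair reached 0.5, and Foxj1 with Dnah12 entry 2 had r = 0.28. In the library labelled cortex Δ12 line +/+ male 1, Dnah12 entry 2 had 17 fragments beside the 128 of Foxj1, while 5 other genes were listed at 0.

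**Figure D3:**
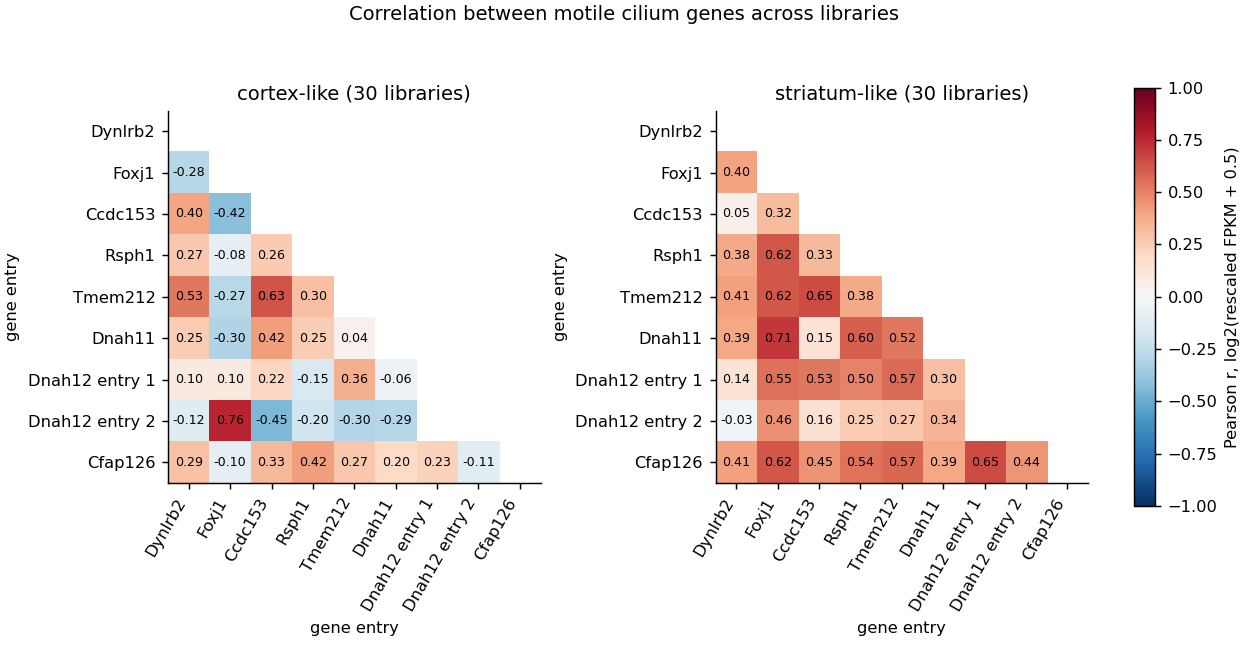
Pearson's r over 30 libraries between each pair of entries, in log2(rescaled FPKM + 0.5), for the cortex-like (left) and striatum-like (right) sets; the colour scale runs from -1 to 1. On the right 34 of 35 pairs of different genes are above 0, on the left 21.

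The genes whose pattern was most like that of the 8, by r with the mean of their z-scores, also differed between the sets. In the striatum-like libraries, the 10 nearest of 15953 entries were Rsph4a (r = 0.88), Dnah6 (0.85), Itpripl1 (0.82), Ak7 (0.79), Tekt1 (0.79), Cfap52 (0.78), Drc7 (0.78), Col8a2 (0.77), Slc4a5 (0.76) and Ttc21a (0.76). Rsph4a is a radial spoke head protein, Dnah6 an inner-arm dynein heavy chain, and Tekt1 a filament of the doublet. Rsph4a ran from 0.196 to 1.13 rescaled FPKM in that set. Slc4a5 is a bicarbonate transporter of the choroid plexus. Without the 2 farthest libraries these 10 r values ran from 0.65 to 0.83, with Rsph4a at 0.81 and Dnah6 at 0.83. In the cortex-like libraries the nearest of 15227 entries were Fam178a (0.82), Klhl1 (0.76), A830092H15Rik (0.73), Eml5 (0.72) and Dock10 (0.72), followed by Gm5763, Sf1, Trank1, Gpx3 and Lmf1 at 0.70 to 0.71. None of these 10 is in a cilium list used here, and without the 2 farthest libraries their r ran from 0.54 to 0.71.

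The cilium genes also moved with the choroid plexus markers among the striatum-like libraries. The mean z-score of the 8 genes had r = 0.66 (Spearman's rho = 0.77) with the log2 sum of these markers, and 0.72 without the 2 libraries farthest from the median sum. Dnah11 had r = 0.73 and rho = 0.85, Rsph1 0.75 and 0.65, Foxj1 0.55 and 0.76, and Ccdc153 0.24 and 0.19. The sum of the leptomeningeal list, most of it Igf2, which the choroid plexus expresses too, had r = 0.74. With estimated depth r was -0.05. In the cortex-like libraries the mean z-score had r = 0.24 with the choroid plexus sum, and 0.07 without the 2 farthest libraries. It had r = 0.60 with the hypothalamic neuron sum (0.44 without the 2 farthest) and 0.51 with the subventricular neuroblast and progenitor sum (0.49 without them). In the striatum-like libraries these were -0.27 and 0.35. Over all entries the median r with the mean z-score was -0.02 in the striatum-like and 0.05 in the cortex-like set. The part of these cells in the levels was not tested.

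**Figure D4:**
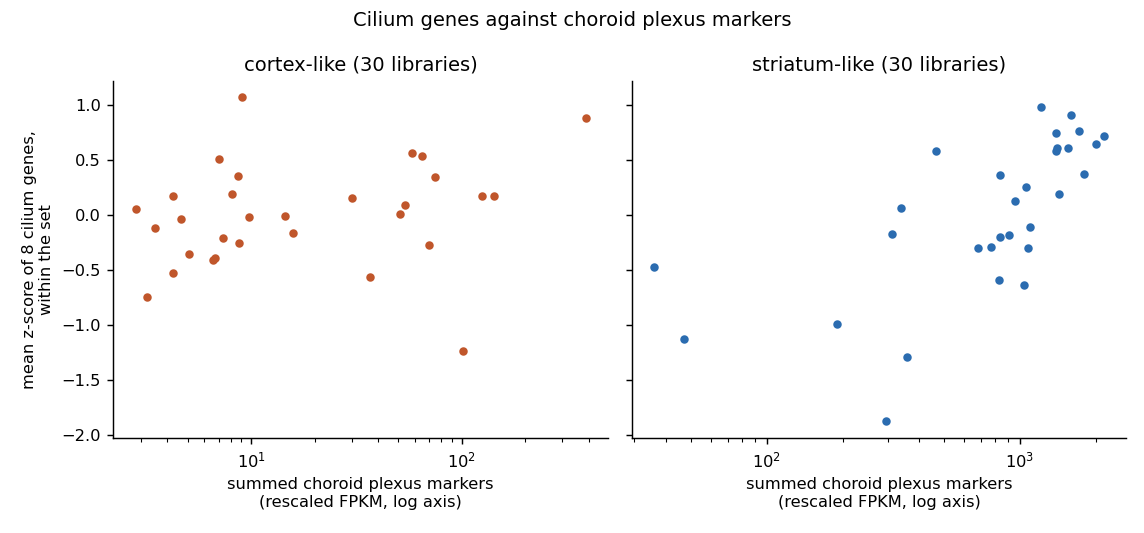
Mean z-score of the 8 cilium genes within a set (y axis) against the summed rescaled FPKM of 10 choroid plexus markers (x axis, log scale), for 30 cortex-like (left) and 30 striatum-like libraries (right); each point is a library. The right panel rises with r = 0.66, the left has r = 0.24.

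The labelled comparisons asked whether Htt genotype altered these genes. Each was fitted across all entries with limma, with labelled sex as a covariate, on log2(rescaled FPKM + 0.5), a scale that understates changes of low genes, and an entry was called at a Benjamini-Hochberg adjusted p under 0.05. Since the labels went against expression in many libraries, each group is that of libraries so labelled.

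Tmem212 was the gene called in the KO line. In the libraries labelled striatum KO/+ it had 1.85, 1.70, 1.00, 2.07, 1.40 and 1.26 rescaled FPKM, and in those labelled striatum +/+ of that line 0.781, 0.815, 1.01, 0.662, 0.402 and 0.936. The groups overlapped in 1 library each, at 1.00 and 1.01. The means were 1.55 ± 0.398 and 0.768 ± 0.218 (SD, n = 6 each), resting on an estimated 80.7 and 42.6 fragments in all, and the log2 change was 0.69 (SE 0.15, limma adjusted p = 0.024). It was 1 of the 6 entries tested, against 6.91% of all 15808 entries called, so nothing is read from that count. Dnah11 and both Dnah12 entries were below the mean of 0.5 needed for testing. With the replicate number as a block the adjusted p was 0.080, and in the fit of all 30 libraries labelled striatum it was 0.44. It was 0.058 without +/+ male 1, 0.057 without +/+ female 1 and 0.053 without KO/+ female 2. The choroid plexus markers summed to 338 to 1407 in KO/+ and 358 to 1707 in +/+ libraries and 8 of 10 had the higher median in KO/+, none at 0 throughout. The sums of 4 other marker lists did not overlap between the groups. Striatal projection neuron markers were higher in KO/+ libraries (919 to 1186 against 618 to 904), and those of oligodendrocytes (492 to 565 against 588 to 743), septal neurons (6.21 to 8.69 against 10.3 to 16.1) and hypothalamic neurons (0 to 1.55 against 6.16 to 139) were lower. All 7 subventricular neuroblast and progenitor markers had the higher median in KO/+ libraries, with sums that overlapped (14.4 to 18.2 against 11.3 to 17.5). So had all 4 cortical excitatory markers (8.11 to 44.7 against 10.5 to 27.6), 2 of 6 astrocyte and 2 of 5 leptomeningeal ones. The part of these cells in the result was not tested.

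The other 5 entries tested in that comparison did not pass. Foxj1 had a log2 difference of 0.16 (95% interval -0.08 to 0.40), Ccdc153 of 0.37 (-0.10 to 0.83), Rsph1 of 0.30 (-0.13 to 0.73), Cfap126 of 0.25 (-0.18 to 0.67) and Dynlrb2 of -0.11 (-0.93 to 0.71). The median over the 6 entries was 0.27 and over all entries 0.02. Of 46 other motile cilium genes tested, Drc1 alone rose (log2 change 0.51, SE 0.10, limma adjusted p = 0.013), and none fell. That is 1 of 46, against 6.91% of all 15808 entries called, so nothing is read from it.

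In the libraries labelled cortex KO/+, 0 of 6 entries tested were called, against 0.0885% of 15820 entries. Tmem212 ran from 1.15 to 2.06 with a median of 1.62 in KO/+ and from 0.0953 to 1.82 with a median of 0.799 in +/+ libraries. Its log2 difference was 0.78 (95% interval 0.13 to 1.43, limma adjusted p = 0.27), and the groups overlapped. The 6 differences ran from 0.24 to 0.78 with a median of 0.39, against 0.00 over all entries. The choroid plexus markers summed to 189 to 2148 in KO/+ (median 1403) and 47.2 to 829 in +/+ libraries (median 389), with 10 of 10 higher in KO/+ by the median. The septal neuron markers (6.02 to 8.66 against 8.92 to 11.7) and hypothalamic neuron markers (0.365 to 1.17 against 1.79 to 28.1) did not overlap and were lower in KO/+. The part of these cells in the differences was not tested. None of 43 other motile cilium genes was called.

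The change of Tmem212 was not shown to differ between the tissue labels. The difference between the KO/+ effects labelled striatum and cortex was -0.10 (95% interval -0.81 to 0.62). That fit treated the 24 libraries as independent, although by their labels each mouse gave 1 library of either tissue. With the labelled mouse as a block the interval was -0.80 to 0.60. In 5 of the 12 labelled mice, the 2 libraries differed in which of Xist and Ddx3y was higher. Without the block the difference passed for 0 of the 6 entries tested, and 0% of 15917 entries were called. Unadjusted, 1788 entries were below 0.05, and on deposited FPKM 1 entry was called.

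In the Δ12/Δ12 groups the expression-defined sets moved with the labels. Libraries labelled female Δ12/Δ12 were striatum-like and all +/+ libraries of that line cortex-like. In the libraries labelled striatum Δ12/Δ12, Foxj1 was at 0.168, 0.726 and 0.425 in the cortex-like 3 and at 3.02, 3.48 and 3.30 in the striatum-like 3, against 0.161 to 0.787 in +/+. The cortex-like 3 thus overlapped +/+ and the others did not. The log2 difference was 0.95 (95% interval 0.09 to 1.81, limma adjusted p = 0.080), and -0.24 with the set as a covariate. In the libraries labelled cortex Δ12/Δ12, Foxj1 was at 0.719, 0.819 and 0.457 in the cortex-like 3 and at 4.88, 3.77 and 4.93 in the others, against 0.220 to 3.62 in +/+. There the difference was 1.04 (-0.17 to 2.25), 1.48 without the libraries that stood apart (limma adjusted p = 0.12), and -0.40 with the set as a covariate. With that covariate the genotype difference rests, in both tissue labels, on the libraries labelled male alone, 3 in each group. The +/+ value of 3.62 was that of male 1, 1 of the libraries that stood apart, and it enters the -0.40.

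Among the libraries labelled striatum Δ12/Δ12, 0 of 5 entries tested were called, against 28.3% of 15467 entries. Tmem212 had a log2 difference of 0.90 (95% interval 0.15 to 1.65, limma adjusted p = 0.063), Ccdc153 of 0.18 and Dnah11 of -0.41. Of 31 other motile cilium genes tested, Spef1, of the central pair, rose by 0.57 (SE 0.17), Cfap69 fell by 0.76 (SE 0.25) and Rfx3 fell by 1.03 (SE 0.23). Of 11 primary cilium genes, Tulp3 rose by 0.86 and Bbs1 by 0.67, and Bbs4 fell by 0.51. These 6 have limma adjusted p of 0.042, 0.035 and 0.046 for Tulp3, Bbs1 and Bbs4 and of 0.037, 0.045 and 0.030 for Spef1, Cfap69 and Rfx3. All 6 changes had the direction of the difference between the sets. The Δ12/Δ12 group alone held striatum-like libraries, so set and genotype label cannot be told apart in this fit. The part of each was not tested. With the set as a covariate, 21 entries in all were called in place of 4381. In that fit the genotype difference rests on the libraries labelled male alone. The choroid plexus sum ran from 8.10 to 1096 in Δ12/Δ12 and from 2.84 to 64.6 in +/+ libraries.

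Dynlrb2 in the libraries labelled cortex Δ12/Δ12 is given as a description, since it was selected on a labelled comparison of these data. It was at 1.04, 1.26, 1.12, 1.70, 2.56 and 1.298 rescaled FPKM, with 5 to 13 fragments each, and at 0 in 5 of the 6 +/+ libraries and 0.229 in the other. In all, 47 fragments stood against 1, and the groups did not overlap. The +/+ group held both libraries that stood apart, and Dynlrb2 was also at 0 in 3 others of that group. The male and female Δ12/Δ12 libraries, cortex-like and striatum-like, were both above the +/+ group, which restates the lack of overlap. The share of all entries without overlap is not given here, and nothing is read from this lack of overlap. Of the 5 entries tested 1 was called, Dynlrb2 itself, against 0.924% of 15696 entries, from which nothing is read. Dynlrb2 passed the mean filter of 0.5 only through the Δ12/Δ12 group, with a mean of 1.496 against 0.0382 in +/+. Dnah11 and Tmem212 had differences of 0.65 (95% interval 0.02 to 1.28) and 0.76 (0.02 to 1.49) with limma adjusted p of 0.12 each, and without the libraries that stood apart the differences were 0.49 and 0.36. The choroid plexus sum was 7.06 to 2005 in Δ12/Δ12 and 3.22 to 101 in +/+ libraries. Dynlrb1 had a difference of 0.64 (SE 0.17, limma adjusted p = 0.070).

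Dynlrb2 varied more in the libraries labelled striatum Δ12/Δ12, with a mean of 1.87 ± 1.71 (SD, n = 6) beside 1.496 ± 0.567 in those labelled cortex Δ12/Δ12. It was highest in 2 cortex-like libraries labelled striatum Δ12/Δ12, male 1 at 4.66 with 22 fragments and male 3 at 3.25 with 15, while male 2 of that group was at 0.195. Tmem212 was at 1.99 and 2.23 in the same 2 libraries and at 0.529 in male 2. Foxj1 was at 0.168 and 0.425 there, within the cortex-like range. In the +/+ libraries labelled striatum of that line Dynlrb2 ran from 0 to 1.14 and in those labelled Δ12/+ from 0 to 0.724. In the 4 groups of the KO line the means were 0.654 to 1.01 and single libraries ran from 0 to 2.23.

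The heterozygous Δ12 groups showed no call among the cilium genes. None of 4 entries tested was called in the libraries labelled striatum Δ12/+, against 0.00663% of 15077 entries, and none of 3 in those labelled cortex Δ12/+, against 0.0662% of 15095. In the first, Foxj1 had a median of 0.663 in Δ12/+ and 0.473 in +/+, a log2 difference of 0.36 (95% interval 0.01 to 0.72), and Tmem212 one of 0.61 (-0.03 to 1.24). The choroid plexus markers summed to 4.27 to 387 in Δ12/+ (median 52.6) and 2.84 to 64.6 in +/+ libraries (median 9.21), with 8 of 10 higher in Δ12/+ by the median. The hypothalamic neuron markers summed to 64.7 to 224 (median 131) and 2.31 to 114 (median 26.1), with 4 of 4 higher. Their part in these differences was not tested. In the libraries labelled cortex Δ12/+, Foxj1 had -0.22 (-1.04 to 0.61) and Ccdc153 0.56 (-0.27 to 1.39). Without the libraries that stood apart Foxj1 turned to 0.22 (-0.16 to 0.61), in a fit with no filter since its mean then lay below 0.5, and Ccdc153 had 0.07. None of 27 and 26 other motile cilium genes was called.

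**Figure D5:**
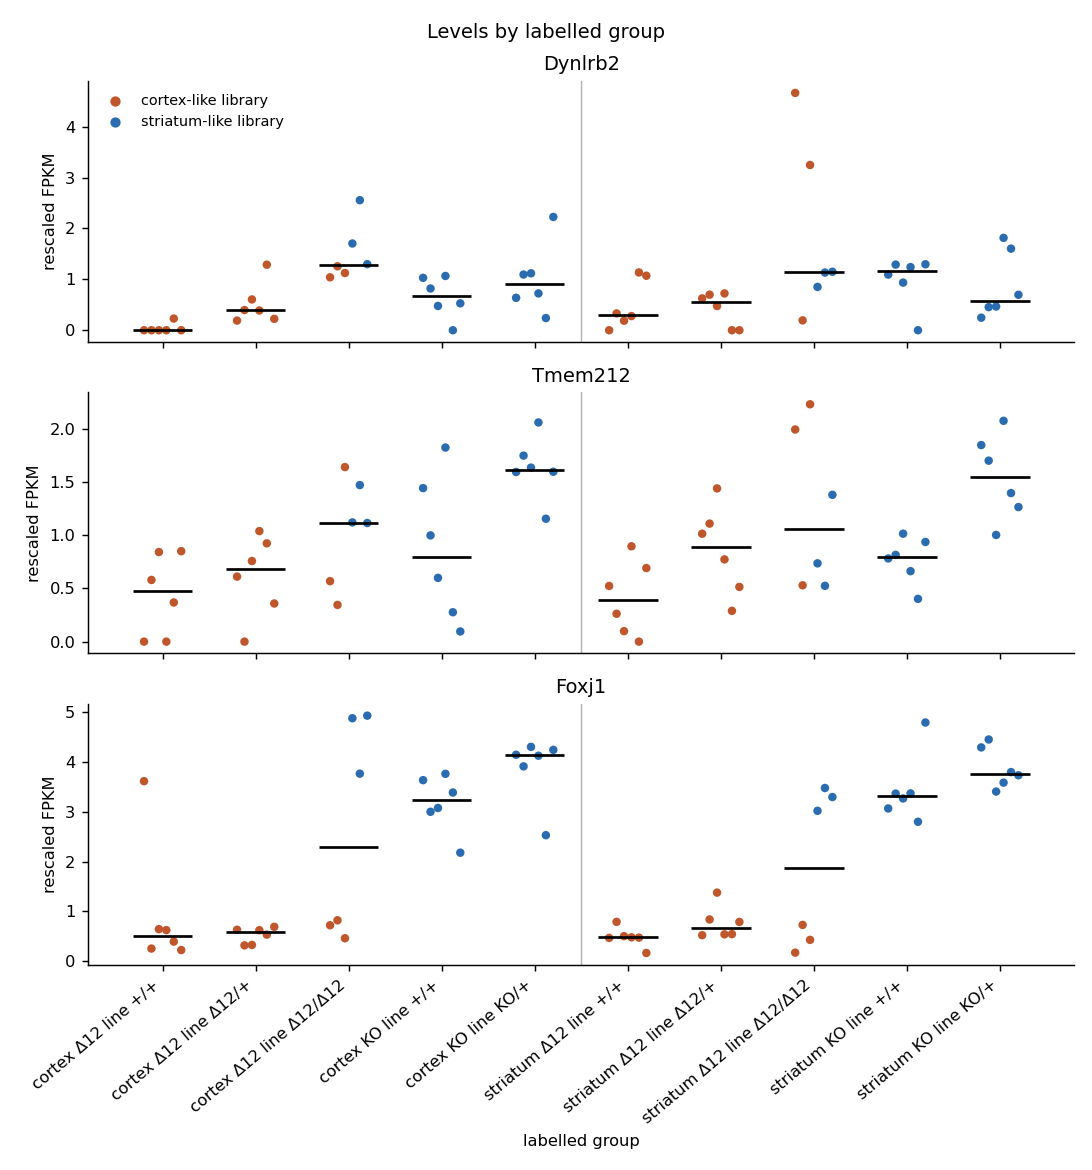
Rescaled FPKM (y axis) of Dynlrb2, Tmem212 and Foxj1 in the 10 labelled groups of 6 libraries (x axis); points are libraries, coloured by expression-defined set, and bars are medians. Foxj1 follows the set of a library in all but 1 case, the cortex-like library at 3.62, and Tmem212 in striatum KO/+ lies at 1.00 to 2.07 against 0.402 to 1.01 in +/+.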

How the data were processed

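RNA-Seq of bulk mouse brain was measured in 60 libraries (rRNA depletion, strand-directional kit). The authors deposited FPKM per gene with interval bounds, 1 table per library in the Cufflinks gene layout. Their processing notes name bcl2fastq 2.20, Trimmomatic 0.30, TopHat2 2.0.14, SAMtools 1.3, HTSeq 0.6.1p1 and GRCm38.p4; which made these tables is not given in the sources used here. Groups follow the labels, and nothing says how same-numbered libraries are related beyond the mouse number. One library whose title and genotype label name different lines was placed by its genotype.

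Of 47597 entries, 23 with a status other than OK were left out. FPKM were divided by the median of ratios over the 13235 entries above 0 in all libraries. Entries with a mean of at least 0.5 over a fit were tested across all entries with limma 3.58.1 (R 4.3.3) on log2(rescaled FPKM + 0.5), after a check on simulated data. P values measure the spread between these libraries. Fragments were estimated as the square of 2 times the FPKM over the distance from it to its upper bound. Within 0.1 they were whole in 98.0% of Dynlrb2 values above 0, 94.6% of Tmem212, 87.3% of Rsph1, 86.2% of Ccdc153, 95.6% of Dnah12 entry 2 and 45.0% of Foxj1. The share was 41.8% for Dnah12 entry 1, 18.3% for Dnah11 and 3.85% for Cfap126, for which no fragments are given. Those of Foxj1 are approximate. Depth was estimated over genes with a single GENCODE M21 transcript, with a minimum length of 2000 nucleotides and a minimum of 20 fragments. Counting error only is covered.

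The cortex-like set has a deposited Slc17a7 FPKM above 100. The genes and lists were chosen with earlier results of these data known. Named genes are the 8, the 10 most like them in each set, up to 4 genes of each list with the highest mean, Dynlrb1 and any called list gene. Leaving out the libraries that stood apart, rescaling within a fit and blocking by labelled mouse were added after seeing the data. Other alternatives were another scaling, pseudocount, filter, covariate or fit, a replicate block and each library left out. Python 3 with numpy, pandas and scipy did the rest.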

Additional observations from a re-analysis of the deposited data

Results flagged for a closer look

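Of 90 sets of 6 libraries, 1 per entry and labelled group, 10 had a library far from the other 5 (Dixon's test), or 11.1%, where chance gives about 1 in 20, and several rest on few fragments. Values are rescaled FPKM, with the nearest other library in brackets.

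Foxj1 was flagged in 4 groups. It was high at 3.62 in cortex Δ12 line +/+ male 1 (0.641), at 1.38 in striatum Δ12/+ male 3 (0.835) and at 4.80 in striatum KO line +/+ female 3 (3.37), and low at 2.53 in cortex KO/+ female 2 (3.91). Dnah12 entry 2 was high at 0.295 in the same cortex +/+ male 1 (0.0301), and entry 1 at 0.410 in cortex KO line +/+ male 1 (0.171). Ccdc153 was high at 1.88 in cortex Δ12/+ female 2 (1.14). Cfap126 was high at 0.949 in striatum Δ12 line +/+ female 1 (0.277). Dynlrb2 was high at 0.229, 1 fragment, in cortex Δ12 line +/+ female 2 (0), and low at 0 in striatum KO line +/+ female 2 (0.937).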

How the results depend on the processing

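Among the cilium genes the count called in striatum KO/+ went from 1 to 2 with no filter (Tmem212 and Dnah12), to 0 with the replicate block and to 0 with all 30 libraries of the tissue label. With all 30 it went from 0 to 3 of 7 tested in striatum Δ12/Δ12 (Dynlrb2, Foxj1, Tmem212) and from 1 to 4 of 6 in cortex Δ12/Δ12 (Dnah11, Dynlrb2, Foxj1, Rsph1), fits in which 50.7% and 49.7% of all entries were called, so nothing is read from these counts. Leaving out 1 library gave 0 to 1 called in striatum KO/+, 0 to 2 in striatum Δ12/Δ12, 1 to 1 in cortex Δ12/Δ12 and 0 to 0 in the other 3. In striatum Δ12/Δ12 these were Dnah11 and Foxj1 without +/+ male 2, Foxj1 without Δ12/Δ12 male 1, and Dynlrb2 and Tmem212 without Δ12/Δ12 male 2. Dynlrb2 was selected on a labelled comparison of these data, so nothing is read from its calls, among them that in cortex Δ12/Δ12. Of 599 recomputed log2 differences, 555 stayed called in the same direction, or stayed uncalled and within 1 SE whatever their sign. A further 29 stayed uncalled but moved by 1 SE or more, 10 passed where they had not and 5 no longer passed. All 27 recomputed set medians stayed within 1 SD. The causes were not tested.

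Counts over all entries depended more on the fit. In striatum KO/+, 1093 were called (555 higher, 538 lower), 306 on deposited FPKM (23 and 283), 302 with the block and 135 with all 30 libraries. Quantile normalization gave 434 and 582. In cortex KO/+, 14 became 110, 28, 0 and 1 on deposited FPKM, with no filter, with the block and with all 30. In striatum Δ12/Δ12, 4381 (2278 higher, 2103 lower) became 2085 with no filter, 9 without the sex covariate, 5 with the block and 8067 with all 30, and deposited FPKM gave 1291 higher and 3045 lower. In cortex Δ12/Δ12, 145 became 78 (quantile normalization), 90 (pseudocount 0.1), 25 (no filter), 10 (no sex covariate), 9 (block), 7972 (all 30), 12 (set as covariate), 22 (without the libraries that stood apart) and 19 (without them and with no filter). In cortex Δ12/+, 10 became 25, 6, 3, 53, 19 and 32 with quantile normalization, pseudocount 0.1, the block, all 30, without the libraries that stood apart, and without them and with no filter.

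Same-numbered libraries did not deviate together (r from -0.21 to 0.09, 0 of 6 pairs over 0.1 in each comparison, 0 to 3 of 6 best with their own number), so the replicate block pairs a number only. Blocking the KO/+ difference between tissue labels by mouse left 0 entries called by limma (1869 at an unadjusted p under 0.05). Few fragments limit Dynlrb2, Tmem212 and Dnah12, and labels that go against expression limit every labelled comparison.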
